A study of Gallus gallus with 4 samples.

Results

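The 9 genes described here, SHH, PTCH1, HHIP, BOC, CDON, SMO, GLI1, GLI2 and GLI3, encode a hedgehog ligand, the proteins that bind it, the transducer and the GLI transcription factors. They were taken by gene name from the authors' transcript sheet, and all 9 were found among its 18292 named genes, with 20 transcripts. Chick retinal explants of embryonic day 5 were electroporated with a ThrbCRM1-GFP plasmid and a UbiqC-Tdt plasmid, cultured for about 20 hours in medium with fetal bovine serum and sorted by FACS. The cells positive for GFP and TdTomato are called ThrbCRM1 here, and the cells positive for TdTomato alone are called UbiqC. The explants received both plasmids, and the populations were separated by whether GFP was seen. The ThrbCRM1 element comes from THRB, which encodes a thyroid hormone receptor, and its reporter marks the cells in which it was active and those that still held GFP. Each population had 2 polyA RNA libraries, lettered A and B, and the labels do not say whether the letters are separate cultures, so each p-value reflects how far these libraries vary, and that variation may be technical.

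In the hedgehog pathway, the secreted ligand binds PTCH1 with the help of the co-receptors BOC and CDON, which frees SMO from inhibition by PTCH1. SMO then acts at the primary cilium to keep GLI2 and GLI3 from being cut into repressors, and activator forms of GLI turn on target genes. PTCH1, HHIP and GLI1 are themselves classical targets, and PTCH1 and HHIP limit the pathway by holding the ligand. In the vertebrate retina SHH is known from ganglion cells, from which it acts on neighbouring progenitors and affects their division and the production of further ganglion cells.

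Pairs of values below are for library A and then library B. The totals were 30959178 and 16087500 estimated counts in ThrbCRM1 and 15673010 and 31659766 in UbiqC. EGFP stood at 9805 and 15147 TPM (a library-scaled level corrected for transcript length) in the ThrbCRM1 libraries. It stood at 150 and 156 TPM in the UbiqC libraries, so this reporter followed the sort. TdTomato, the reporter of both populations, stood at 3547 and 14505 TPM in ThrbCRM1 and at 2124 and 5637 TPM in UbiqC. Its level thus differed widely between libraries of the same population. THRB itself stood at 309 and 419 TPM in ThrbCRM1 and at 6.81 and 7.94 TPM in UbiqC. The labels give retinal progenitor cells as the source of both populations. Genes that mark progenitors and glia were read in every library, with a summed level of 2501 to 2803 TPM in ThrbCRM1 and 21746 to 22127 TPM in UbiqC. Of 16771 genes tested with edgeR's quasi-likelihood test at an adjusted p of 0.05, 40.8% were called, 19.9% as higher and 20.9% as lower in ThrbCRM1. An unadjusted p below 0.05 in that test, in either direction, was reached by 8264 of these genes.

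All 9 hedgehog genes passed the filter on low counts, and all 9 were called in that test. SHH and HHIP were higher in ThrbCRM1 and the other 7 were lower, so the genes for the ligand and for its decoy receptor stood on the opposite side to those for the receptor, the co-receptors, the transducer and the GLI factors. The libraries of the populations did not overlap for any of the 9, which was also the case for 72.0% of all tested genes. The median log2 fold change (ThrbCRM1 minus UbiqC) of the 9 was -1.61, and that of all tested genes was -0.01. Of the 9, GLI1, GLI2, GLI3 and SMO were at least 4-fold lower, a size of decrease that 2.99% of all tested genes reached together with a call.

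**Figure D1:**
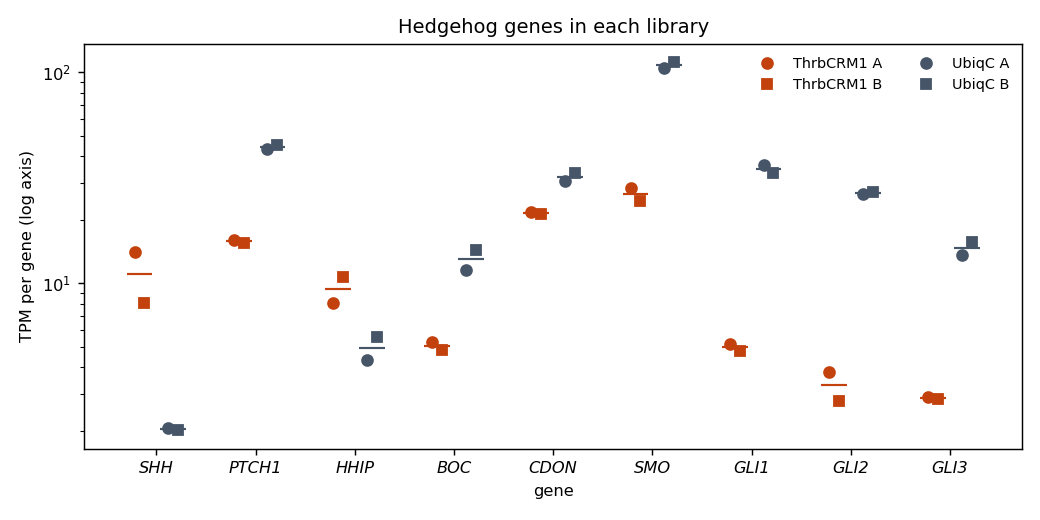
Level of each hedgehog gene in TPM on a log axis, by gene, with ThrbCRM1 libraries in orange and UbiqC libraries in grey, A as circles, B as squares, and the mean of 2 libraries as a line. SHH and HHIP lie higher in ThrbCRM1, the other 7 genes lie lower, and the populations do not overlap for any gene.

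SHH, the ligand, stood at 14.1 and 8.03 TPM in the ThrbCRM1 libraries, against 2.07 and 2.01 TPM in the UbiqC libraries. The groups did not overlap, but the ThrbCRM1 libraries differed 1.76-fold from each other, the widest gap within a population among the 9 genes. These levels rested on 324 and 96 estimated counts in ThrbCRM1, with exact Poisson 95% intervals of 290 to 361 and 77.8 to 117. In UbiqC they rested on 26 and 49 counts, with intervals of 17.0 to 38.1 and 36.3 to 64.8, and these intervals cover counting error only. The log2 fold change was 2.39 ± 0.31 (SE), a 5.24-fold higher level in ThrbCRM1 (edgeR adjusted p = 0.00179). It was 1.95 without ThrbCRM1 A (edgeR adjusted p = 0.0169) and 2.71 without ThrbCRM1 B. Only 2.71% of tested genes had a log2 fold change as high or higher.

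The other hedgehog ligands, IHH and DHH, carried no name in the authors' sheet and were matched by RefSeq accession. IHH had 2 and 1 estimated counts in ThrbCRM1 and 0 and 3 in UbiqC. DHH had 4 and 1 in ThrbCRM1 and 0 and 3 in UbiqC, so the hedgehog ligand read above a few counts in these libraries was SHH.

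Markers of ganglion cells, the known retinal source of SHH, were followed beside it. Of 14 tested ganglion cell genes, 2 rose (the neurofilament genes NEFL and NEFM), 5 fell (ISL1, EBF3, RBPMS, RBPMS2 and GAP43) and 7 were not called. Their summed level was 763 and 584 TPM in ThrbCRM1 and 671 and 565 TPM in UbiqC, so the groups overlapped, and none of the 14 was at 0 in all libraries. NEFL and NEFM together held 423 and 372 TPM in ThrbCRM1 and 166 and 138 TPM in UbiqC. Without these 2 the sum was 340 and 213 TPM in ThrbCRM1 and 505 and 428 TPM in UbiqC. They were left out because they were called higher, after their values were seen. The lower sum that remained in ThrbCRM1 was therefore favoured by that choice and is no separate support. Library A had the higher ganglion cell sum in both populations, while SHH was higher in A by 1.76-fold in ThrbCRM1 and by 1.03-fold in UbiqC. The part of these cells in the level of SHH was not tested.

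By a measure of pattern, the distance over the 4 libraries between log2 CPM values centred on each gene, the 5 genes closest to SHH among 9847 with a mean of at least 10 CPM were LOC107052611, CHGB, ST18, SCUBE1 and ELAVL2. CPM are counts scaled to library size, with no correction for length. CHGB encodes a granin of secretory granules, ST18 a zinc finger factor, SCUBE1 a secreted protein of the family that includes the SHH release factor SCUBE2, and ELAVL2 a neuronal RNA-binding protein. CHGB averaged 459 ± 80.6 CPM in ThrbCRM1, against 105 ± 4.52 CPM in UbiqC (SD, n = 2 each). SCUBE1 averaged 40.1 ± 11.7 CPM in ThrbCRM1, against 7.03 ± 0.939 CPM in UbiqC. SCUBE2 itself was not called, with a log2 fold change of -0.45 ± 0.25. The distance to SHH lay between 0.277 for LOC107052611 and 0.347 for ELAVL2, and it rests on 4 libraries of 2 populations. The log2 fold changes of the 5 genes lay between 2.05 for ST18 and 2.50 for SCUBE1, near the 2.39 of SHH. Their places therefore largely restate those fold changes.

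PTCH1, the receptor that restrains SMO, stood at 16.0 and 15.6 TPM in the ThrbCRM1 libraries, against 43.2 and 45.2 TPM in the UbiqC libraries. The higher library stood at 1.03 times the lower in ThrbCRM1 and at 1.05 times in UbiqC, and the populations did not overlap. On counts the log2 fold change was -1.61 ± 0.07 (SE), a 3.05-fold lower level in ThrbCRM1 (edgeR adjusted p = 2.2e-05). With an offset for effective transcript length it was -1.55 ± 0.07, and the TPM means were 2.80-fold apart.

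HHIP, a membrane protein that binds hedgehog ligands without signalling, went the other way. It stood at 8.08 and 10.7 TPM in the ThrbCRM1 libraries and at 4.32 and 5.55 TPM in the UbiqC libraries. The groups did not overlap, and the higher library stood at 1.32 times the lower in ThrbCRM1 and at 1.28 times in UbiqC. The log2 fold change was 0.80 ± 0.13 (SE), 1.74-fold higher in ThrbCRM1 (edgeR adjusted p = 0.00414), and 13.1% of tested genes were as high or higher. PTCH1 and HHIP thus changed in opposite directions, and the TPM of PTCH1 over that of HHIP within a library was 1.98 and 1.46 in ThrbCRM1 and 9.999 and 8.13 in UbiqC. With 2 libraries a group, an exact permutation test of such a ratio cannot go below p = 0.333, so the ratios are given as descriptions.

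BOC and CDON, the co-receptors with immunoglobulin and fibronectin repeats, both fell, to different degrees. BOC stood at 5.27 and 4.81 TPM in the ThrbCRM1 libraries, against 11.6 and 14.5 TPM in the UbiqC libraries (log2 fold change -1.44 ± 0.13, edgeR adjusted p = 0.000425). CDON stood at 21.9 and 21.4 TPM in the ThrbCRM1 libraries, against 30.6 and 33.3 TPM in the UbiqC libraries. Its log2 fold change of -0.62 ± 0.07 (edgeR adjusted p = 0.00121) was the smallest in size of the 9, and 17.2% of tested genes were as low or lower. CDON was the more abundant co-receptor gene in every library, at 4.15 and 4.45 times the TPM of BOC in the ThrbCRM1 libraries and 2.65 and 2.30 times in the UbiqC libraries. Set against PTCH1, CDON stood at 1.37 times its TPM in both ThrbCRM1 libraries and at 0.709 and 0.737 times in the UbiqC libraries.

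SMO, the membrane protein that passes the signal on, had the highest TPM of the 9 genes in both populations. It stood at 28.2 and 24.5 TPM in the ThrbCRM1 libraries, against 105 and 111 TPM in the UbiqC libraries. The log2 fold change was -2.10 ± 0.08 (SE), a 4.28-fold lower level (edgeR adjusted p = 2.0e-05). The fall of SMO was larger than that of PTCH1, and the level of SMO over PTCH1 within a library was 1.76 and 1.57 in the ThrbCRM1 libraries and 2.44 and 2.47 in the UbiqC libraries.

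The 3 GLI genes had the largest decreases of the 9. GLI1, an activator and the standard readout of the pathway, stood at 5.18 and 4.77 TPM in the ThrbCRM1 libraries, against 36.5 and 33.2 TPM in the UbiqC libraries. Its log2 fold change was -2.87 ± 0.11 (SE), 7.29-fold lower in ThrbCRM1 (edgeR adjusted p = 1.9e-05).

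GLI2, the main activator in most vertebrate tissues, stood at 3.80 and 2.77 TPM in the ThrbCRM1 libraries, against 26.6 and 27.2 TPM in the UbiqC libraries. The log2 fold change was -3.07 ± 0.13 (8.40-fold lower, edgeR adjusted p = 2.6e-05), and 0.888% of tested genes were as low or lower. A further GLI2 transcript, XM_015289786.1, has no gene name in the authors' sheet and held 44.9 estimated counts in ThrbCRM1 A. With it, the log2 fold change of GLI2 was -2.98.

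GLI3, which acts mostly as a repressor when no ligand is present, stood at 2.90 and 2.82 TPM in the ThrbCRM1 libraries, against 13.6 and 15.7 TPM in the UbiqC libraries (log2 fold change -2.42 ± 0.10, 5.35-fold lower, edgeR adjusted p = 2.2e-05). Summed over the GLI genes, the level was 11.9 and 10.4 TPM in the ThrbCRM1 libraries and 76.7 and 76.1 TPM in the UbiqC libraries. Within that sum GLI3 held 24.4% and 27.2% in the ThrbCRM1 libraries, against 17.7% and 20.7% in the UbiqC libraries, and these ranges did not overlap. The share of GLI2 was 32.0% and 26.7% in ThrbCRM1 and 34.7% and 35.7% in UbiqC, also without overlap. The share of GLI1 overlapped, at 43.6% and 46.0% in ThrbCRM1 and 47.6% and 43.6% in UbiqC. These shares were not tested and are given as descriptions.

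**Figure D2:**
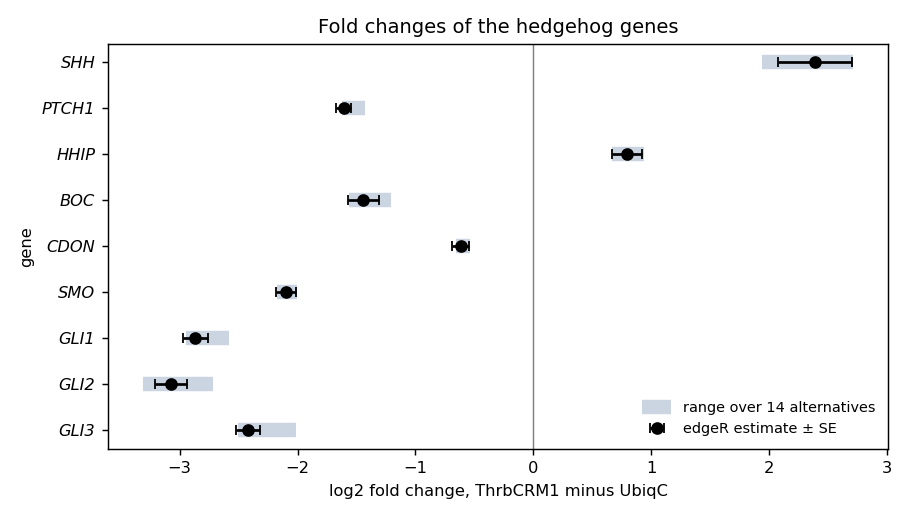
Log2 fold change of each hedgehog gene (ThrbCRM1 minus UbiqC, x axis) with its SE as a black bar and the range over 14 alternative analyses as a grey band. SHH and HHIP stay right of 0 and the other 7 genes stay left of it over the whole band, from -3.31 for GLI2 to 2.71 for SHH.

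The order of the levels differed between the populations. In ThrbCRM1 the mean TPM ran from SMO (26.4) over CDON (21.6), PTCH1 (15.8), SHH (11.1), HHIP (9.39), BOC (5.04), GLI1 (4.97) and GLI2 (3.28) to GLI3 (2.86). The libraries of SHH and HHIP, of BOC and GLI1, and of GLI2 and GLI3 overlapped there, so these neighbours were not apart beyond their spread. In UbiqC the order ran from SMO (108) over PTCH1 (44.2), GLI1 (34.9), CDON (31.9), GLI2 (26.9), GLI3 (14.7), BOC (13.0) and HHIP (4.94) to SHH (2.04), and GLI1 overlapped with CDON and GLI3 with BOC. The ligand was thus last in UbiqC and the fourth in ThrbCRM1, where its TPM was 0.881 and 0.516 times that of PTCH1 in A and B, against 0.0479 and 0.0445 times in the UbiqC libraries.

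Genes of progenitors and glia fell together with the receptor and GLI genes. All 8 of that list were called lower, among them the glial genes SLC1A3 and GLUL, the fatty acid carrier gene FABP7 and the progenitor factor genes LHX2 and NR2E1, and the gap in their summed level is given above. None of the 8 rose by edgeR, at an unadjusted p below 0.05, or by DESeq2. Of 8 tested photoreceptor genes 6 rose and 1 fell, with a summed level of 2493 to 2805 TPM in ThrbCRM1 and 51.7 to 53.7 TPM in UbiqC. DESeq2 called 5 of them higher and 1 lower. Among the 6, NR2E3 (0.0637 and 0.604 CPM in UbiqC) and AIPL1 (0.700 and 0.350 CPM in UbiqC) passed the filter on low counts only through ThrbCRM1. Their calls are therefore no separate support. Of 7 horizontal cell genes 6 rose and 1 fell, at 355 to 429 TPM in ThrbCRM1 and 41.8 to 57.1 TPM in UbiqC. In such bulk samples, fewer cells that express a gene and less of its RNA per cell cannot be told apart, and the part of these cell types in the hedgehog values was not tested.

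Cells outside the neural retina were followed by 4 further lists. The gap in summed level rested mostly on 1 gene in 3 of them, so the sums are also given without that gene, chosen after the values were seen. Of 11 genes that mark pigment epithelium or ciliary margin 3 rose (TYRP1, DCT and OTX1) and 3 fell (MITF, RLBP1 and GJA1), with a summed level of 47.2 and 53.4 TPM in ThrbCRM1 and 291 and 399 TPM in UbiqC. GJA1, which encodes a gap junction protein of many cell types, held 252 and 361 TPM of that in UbiqC, and without it the sum was 25.5 and 27.0 TPM in ThrbCRM1 and 39.4 and 37.9 TPM in UbiqC. The pigment genes TYRP1 (log2 fold change 3.44 ± 0.75) and DCT (0.95 ± 0.18) went against the direction of the sum. TYRP1 rested on 44 and 20 estimated counts in ThrbCRM1 and on 0 and 6 in UbiqC. It passed the filter on low counts only through ThrbCRM1. DESeq2 called 2 genes of this list higher and 3 lower.

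Of 6 tested lens genes 1 rose and 4 fell, with a sum of 16.6 and 14.4 TPM in ThrbCRM1 and 74.3 and 81.4 TPM in UbiqC. Without CRYAB, a small heat shock protein gene, it was 11.6 and 9.28 TPM in ThrbCRM1 and 22.5 and 20.5 TPM in UbiqC. The lens gene that rose was BFSP1, named after its value was seen. It rested on 69 and 29 estimated counts in ThrbCRM1 and on 6 and 17 in UbiqC. BFSP1 passed the filter on low counts only through ThrbCRM1, so its call is no separate support. Of 8 tested genes of endothelium and mesenchyme 5 fell and 0 rose by edgeR, with 5 lower and 0 higher both at an unadjusted p below 0.05 and by DESeq2. Their sum was 15.8 and 18.2 TPM in ThrbCRM1 and 65.7 and 89.6 TPM in UbiqC. Without KDR, which encodes a VEGF receptor, it was 9.76 and 12.0 TPM in ThrbCRM1 and 11.9 and 15.3 TPM in UbiqC, and the groups overlapped. The list of blood and immune genes kept only PTPRC, which rose, and TAL1, which fell. Their summed level was 4.53 to 4.85 TPM in ThrbCRM1 and 2.51 to 3.38 TPM in UbiqC. TAL1 rested on 2 and 2 estimated counts in ThrbCRM1 and on 14.8 and 20.6 in UbiqC. It passed the filter on low counts only through UbiqC, and DESeq2 called 0 genes of this list lower. Whether such cells carried any of the hedgehog reads was not tested.

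GLI1 was closest in pattern to METRN, DTX4, CRABP2, FABP7 and LAMA5, with distances between 0.127 and 0.179 over the 4 libraries. METRN encodes a secreted factor of glia and neurites, DTX4 a ubiquitin ligase of the Notch pathway, CRABP2 a retinoic acid carrier, FABP7 a fatty acid carrier of progenitors and glia, and LAMA5 a laminin chain. FABP7 averaged 641 ± 39.5 CPM in ThrbCRM1, against 5178 ± 161 CPM in UbiqC (SD, n = 2 each). DTX4 averaged 123 ± 4.82 CPM in ThrbCRM1, against 973 ± 14.2 CPM in UbiqC. Among the other hedgehog genes that fell, GLI2 came at place 41 of the 9847 genes compared, GLI3 at 80, SMO at 161, PTCH1 at 321, BOC at 416 and CDON at 1291. HHIP, which rose, came at place 8930. The places of these hedgehog genes follow how near their log2 fold changes were to that of GLI1, so they largely restate those.

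The transcripts show which models carried these sums. kallisto divides reads between overlapping transcripts by estimation, and the transcript fit had a common biological coefficient of variation of 64.7%, against 10.6% for genes. Of 32759 tested transcripts 6.01% were called, 2.93% as lower. All 20 transcripts of the hedgehog genes were tested, and 6 were called lower, 0 higher and 14 not. At an unadjusted p below 0.05, edgeR had 2 higher and 9 lower. In each fit without 1 of the 4 libraries, edgeR called 0 of them and 0 transcripts in all.

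PTCH1 had 2 listed transcripts that changed by different amounts. XM_015280248.1, of 7492 bases, stood at 13.2 and 12.7 TPM in the ThrbCRM1 libraries and at 39.9 and 41.4 TPM in the UbiqC libraries (log2 fold change -1.74 ± 0.06, edgeR adjusted p = 0.0159). NM_204960.2, of 4480 bases, stood at 2.81 and 2.89 TPM in the ThrbCRM1 libraries and at 3.30 and 3.70 TPM in the UbiqC libraries, and was not called (log2 fold change -0.38 ± 0.23, edgeR adjusted p = 0.432). The shorter model therefore made up 17.6% and 18.5% of the PTCH1 level in the ThrbCRM1 libraries, against 7.63% and 8.20% in the UbiqC libraries. The shares agreed between the libraries of a population and did not overlap between populations, and the difference in share was not tested. A lack of overlap was also found for shares of CDON, GLI2 and BOC transcripts, which varied more within a population. Among these were XM_417853.5, NM_001271902.1 and XM_015296544.1. With 2 libraries a group, an exact permutation test of such a share cannot go below p = 0.333.

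**Figure D3:**
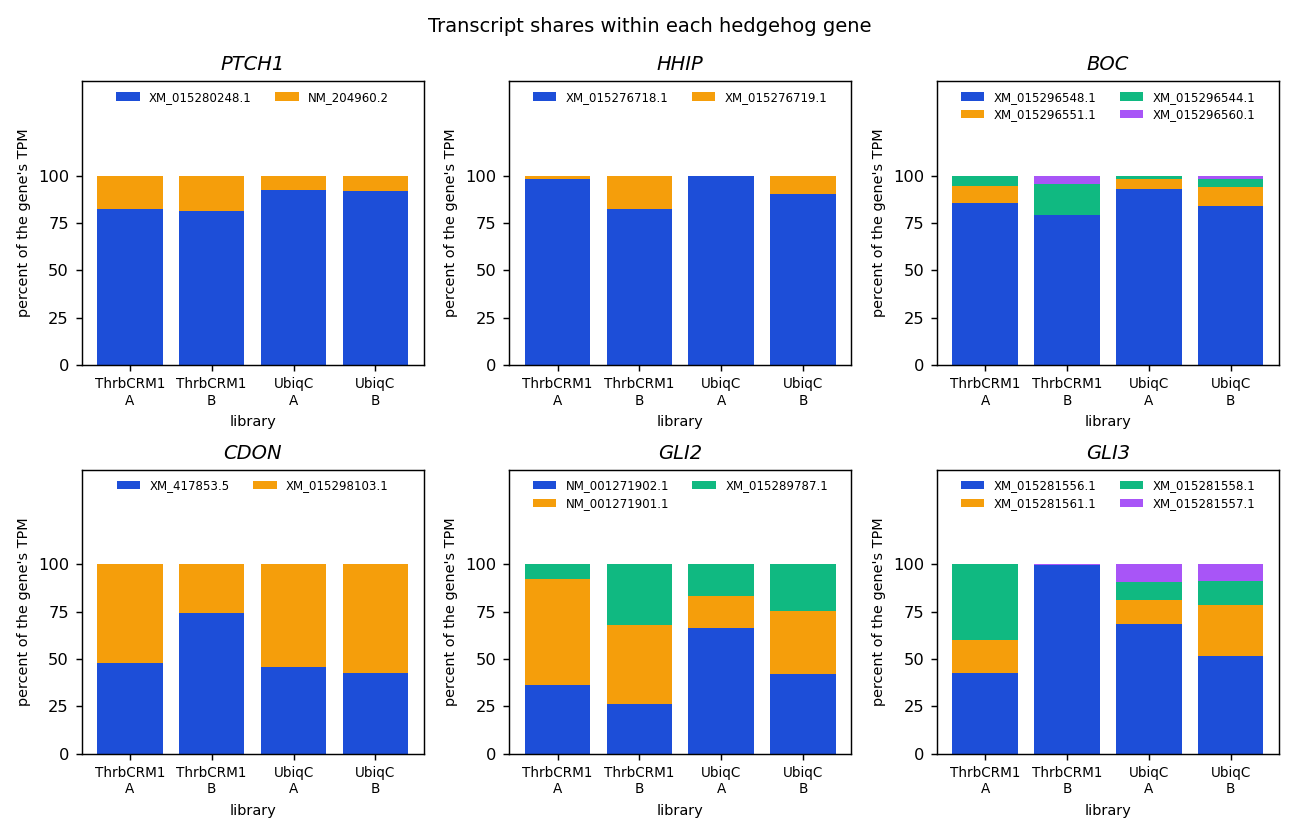
Share of each transcript in the TPM of its gene (percent, y axis) in the 4 libraries, ThrbCRM1 left and UbiqC right, for the 6 hedgehog genes with more than 1 listed transcript. The shorter PTCH1 model (orange) is wider in both ThrbCRM1 libraries, at 17.6% and 18.5%, than in UbiqC, at 7.63% and 8.20%, while the shares in CDON, GLI2 and GLI3 vary between libraries of the same population.

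For CDON, GLI2 and GLI3 the division among transcripts varied within a population. XM_417853.5 held 47.9% of CDON in ThrbCRM1 A and 74.1% in ThrbCRM1 B, against 45.8% and 42.4% in the UbiqC libraries. XM_015281556.1 held 42.8% of GLI3 in ThrbCRM1 A and 99.4% in ThrbCRM1 B, against 68.3% and 51.5% in the UbiqC libraries, although the sum over GLI3 differed by only 1.03-fold between the ThrbCRM1 libraries. The 4 GLI3 models differ in length by a few bases, from 9265 to 9270, so reads that fit several of them are hard to assign. XM_015281557.1, with the largest fitted decrease, was among the 6 hedgehog transcripts called lower (edgeR adjusted p = 0.0389), and its call rests on that assignment. It was read at 104 and 216 estimated counts in the UbiqC libraries and at under 1 count in both ThrbCRM1 libraries. It thus passed the filter on low counts only through UbiqC, so its call among the 6 is no separate support.

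GLI2 was spread over 3 models, and NM_001271902.1 was called lower (log2 fold change -3.87 ± 0.48, edgeR adjusted p = 0.0450). It stood at 1.38 and 0.717 TPM in the ThrbCRM1 libraries and at 17.6 and 11.5 TPM in the UbiqC libraries. NM_001271901.1 and XM_015289787.1 had log2 fold changes of -2.13 and -3.33 and were not called. BOC was mostly XM_015296548.1, which was called lower and held 85.5% and 79.4% of the level in the ThrbCRM1 libraries and 93.1% and 83.9% in the UbiqC libraries. HHIP was mostly XM_015276718.1, with 98.3% and 82.1% in the ThrbCRM1 libraries and 100% and 90.4% in the UbiqC libraries. SHH, SMO and GLI1 each had 1 listed transcript, of which those of SMO and GLI1 were called lower.

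Lists of other hedgehog pathway genes were read from the same fit. Of 72 tested genes in 6 lists, 13 rose, 18 fell and 41 were not called, so 43.1% were called beside 40.8% of all tested genes, and their median log2 fold change was -0.14.

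Among the ligand processing and release genes, 2 of 7 tested rose, 1 fell and 4 were not called. SCUBE1 stood at 9.64 and 6.19 TPM in the ThrbCRM1 libraries and at 1.18 and 1.47 TPM in the UbiqC libraries. Its log2 fold change was 2.50 ± 0.23 (edgeR adjusted p = 0.000414). Its relatives SCUBE2 and SCUBE3 had log2 fold changes of -0.45 ± 0.25 and -2.14 ± 0.88. Both were lower in each ThrbCRM1 library than in either UbiqC library but not called, and were named after their values were seen. Such a lack of overlap, in either direction, was found for 72.0% of all tested genes. The ThrbCRM1 libraries lay far apart for SCUBE3, at 3.59 and 0.0529 TPM, against a mean of 8.44 TPM in UbiqC. PTCHD2, a gene with a patched domain, stood at 14.4 and 14.7 TPM in ThrbCRM1 and 4.45 and 4.87 TPM in UbiqC (1.57 ± 0.09). DISP1, which releases lipid-bearing ligand from the cells that make it, fell slightly (-0.42 ± 0.11, edgeR adjusted p = 0.0294), and it was named after its value was seen. Its call was lost in 7 of 14 alternatives, among them DESeq2, the limma fits on TPM and the fits without ThrbCRM1 A, without ThrbCRM1 B and without UbiqC B.

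Of 7 other receptors and co-receptors 1 rose, 4 fell and 2 were not called, with a median log2 fold change of -1.10. GPC4, a glypican of the cell surface, stood at 8.77 and 7.72 TPM in the ThrbCRM1 libraries, against 32.1 and 36.8 TPM in the UbiqC libraries (log2 fold change -2.12 ± 0.10, edgeR adjusted p = 3.5e-05). GAS1, a co-receptor that works beside BOC and CDON, fell by 0.94, GPC5 fell by 1.45, and LRP2, an endocytic receptor that binds SHH, rose by 0.48, and these 3 were named after their values were seen. The call of LRP2 was lost without ThrbCRM1 A, without ThrbCRM1 B, without UbiqC A and in the limma fits on TPM.

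**Figure D4:**
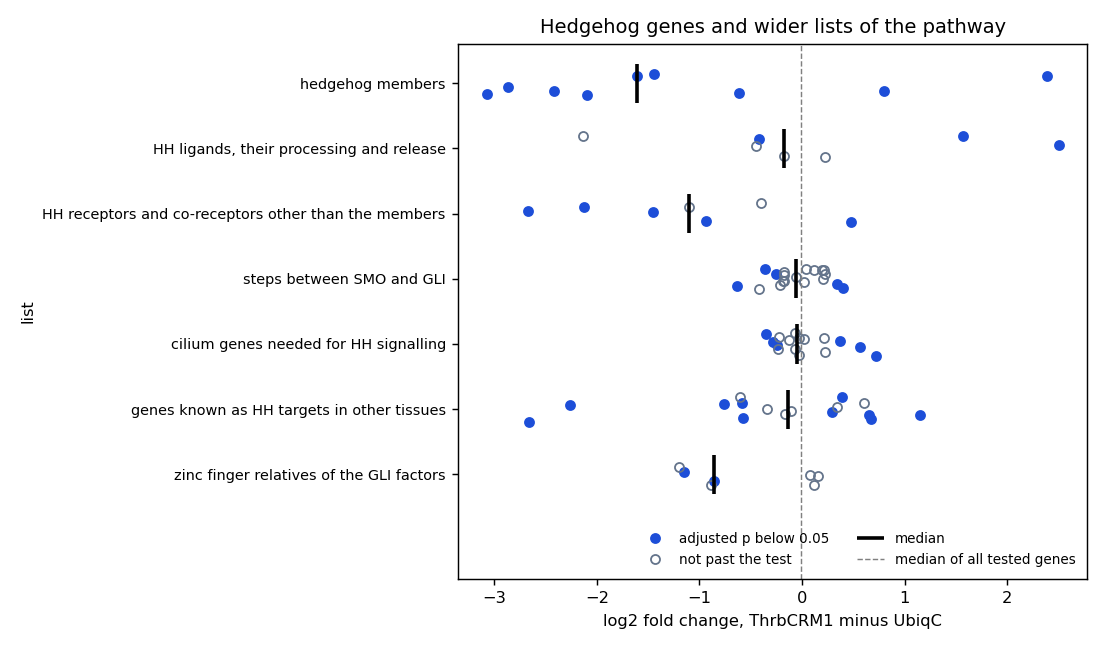
Log2 fold change (ThrbCRM1 minus UbiqC, x axis) of the 9 hedgehog genes and of 6 lists of other genes tied to the pathway, with filled points for an edgeR adjusted p below 0.05, a black line for each list's median and a dashed line for the median of all tested genes (-0.01). The genes between SMO and GLI and the cilium genes lie close to 0, with medians of -0.06 and -0.05, while the 9 genes have a median of -1.61.

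Genes that act between SMO and GLI lay close to 0, with a median of -0.06, 2 risen, 3 fallen and 14 not called of 19 tested. Of 14 alternatives, 7 lost the call of CSNK1A1 (lower), 6 that of IQCE (lower) and 4 that of BTRC (higher). CSNK1A1, IQCE and BTRC were named after their values were seen. SUFU, which holds GLI proteins back, fell to 37.6 and 40.3 TPM in the ThrbCRM1 libraries, against 50.4 and 64.4 TPM in the UbiqC libraries (-0.63 ± 0.09, edgeR adjusted p = 0.00238). GSK3B, a kinase that marks GLI proteins for cutting, rose by 0.40 ± 0.07 (edgeR adjusted p = 0.00665, and 0.0713 without ThrbCRM1 A). Of 16 cilium genes 3 rose, 3 fell and 10 were not called, with a median of -0.05. TCTN1 was among those that rose, and it was named after its value was seen. Its call was lost in 5 of 14 alternatives, among them DESeq2. KIF3A, a motor of ciliary transport, rose by 0.72 and TULP3, an adaptor that brings receptors into the cilium, rose by 0.57, while the intraflagellar transport genes IFT172, IFT52 and IFT122 fell by 0.24 to 0.35. Those 3 were named after their values were seen, and DESeq2 and the limma fits called 0 cilium genes lower, with 4 lower at an unadjusted edgeR p below 0.05. Without ThrbCRM1 A, UbiqC A or UbiqC B edgeR called 0 of them lower, and without ThrbCRM1 B it called 1.

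Of 16 tested genes known as hedgehog targets in other tissues 5 rose, 5 fell and 6 were not called, with a median of -0.14. SFRP1, a secreted antagonist of Wnt ligands, stood at 29.3 and 28.4 TPM in the ThrbCRM1 libraries and at 164 and 186 TPM in the UbiqC libraries (-2.66 ± 0.08, edgeR adjusted p = 1.4e-05). SFRP1 is also on the list of progenitors and glia above, so the same fall is counted in both lists. PAX2 is a paired box gene of the ventral optic cup and optic stalk. It stood at 4.52 and 3.50 TPM in ThrbCRM1 and at 20.5 and 18.6 TPM in UbiqC (-2.26 ± 0.13). The other 3 that fell were the cyclin genes CCND1 (-0.57) and CCND2 (-0.58) and the ventral gene VAX1 (-0.76). The 5 that rose were OLIG2 (1.15), a target in the ventral spinal cord, MYCN (0.67), NR2F2 (0.65), CDK6 (0.39) and BCL2 (0.29). These 8 were named after their values were seen. Without ThrbCRM1 A the calls of CCND2, CDK6 and BCL2 were lost, without ThrbCRM1 B those of VAX1, CDK6 and BCL2, and without UbiqC A those of CDK6 and BCL2. An unadjusted edgeR p below 0.05, in either direction, was reached by 8264 of the 16771 tested genes. Of 7 zinc finger relatives of the GLI factors 0 rose by edgeR, at an unadjusted p below 0.05, or by DESeq2. GLIS3 stood at 0.776 and 0.384 CPM in ThrbCRM1 and at 1.53 and 1.30 CPM in UbiqC. It passed the filter on low counts only through UbiqC, so its place among the 4 counted next is no separate support. At an unadjusted edgeR p below 0.05, 4 were lower, of which 2 fell after adjustment, ZIC1 (-1.15 ± 0.19) and GLIS2 (-0.86 ± 0.16, edgeR adjusted p = 0.0645 without ThrbCRM1 A).

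The authors' deposited table gives effects on a natural log scale that are negative where ThrbCRM1 is higher. In the authors' deposited table SHH (-1.59) and HHIP (-0.59) were negative and the other 7 positive, from 0.44 for CDON to 2.12 for GLI2. The largest q-value among the 9 in the authors' deposited table was 0.00588, for HHIP. These values and the edgeR fit come from the same 4 libraries, so they compare methods.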

How the data were processed

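PolyA RNA was sequenced from 4 libraries, 2 of each population, grouped by their titles. Per the submitters' processing notes, kallisto and sleuth were used with galGal5. Tool versions are not given in the sources used here. Per transcript, the authors deposited expected counts and TPM, with transcript lengths in bases. The authors' deposited transcript sheet, used for its gene names, holds a signal equal to TPM times 1 factor per library. A p-value, a q-value and a natural log effect per gene come from the authors' deposited sleuth table.

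For each gene the counts of its transcripts were added and the sum rounded. EGFP and TdTomato were left out. The main test was edgeR 4.0.16 in R 4.3.3: filterByExpr with a minimum count of 10, TMM factors between 0.988 and 1.007, the quasi-likelihood test and Benjamini-Hochberg adjustment at 0.05 over all 16771 genes, with 2 residual degrees of freedom. SEs are the size of the log2 fold change over the root of the F statistic. limma 3.58.1 and DESeq2 1.42.0 served as alternatives. Libraries of a population differed by more than sampling error (a chi-square of 7.80 per degree of freedom for ThrbCRM1, 9.29 for UbiqC).

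The genes and lists were chosen with earlier results of these data known. The rule for named genes took the 9 genes, their transcripts, the ligands, 2 genes per list with the smallest edgeR p and 5 genes closest in pattern to SHH and to GLI1. Listed symbols with no match in the sheet, and promoter motifs, were not analysed here. Some genes of the lists are counted but not reported singly here. Genes that share sequence with relatives may have reads split between them.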

Additional observations from a re-analysis of the deposited data

Results flagged for a closer look

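A GLI2 transcript outside the gene sums, XM_015289786.1, held 44.9 estimated counts in ThrbCRM1 A and 0 in ThrbCRM1 B, against 0 in UbiqC A and 0.0023 in UbiqC B. It drew attention because it carries signal in data that the gene comparison does not use, above the level in UbiqC. It was matched to GLI2 by its RefSeq accession.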

How the results depend on the processing

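All 9 hedgehog genes kept their direction and their call in each of the 14 alternatives, with the largest adjusted p at 0.0318 for HHIP (limma on log2(TPM + 1), no filter). SHH passed the filter of at least 5 CPM in 2 libraries only through ThrbCRM1 (10.5 and 6.15 CPM, against 1.66 and 1.56 in UbiqC). Its call in that alternative is therefore no separate support. The alternative that adds transcripts matched by accession was chosen after seeing the data. Over all genes, fits without 1 library called 1888 to 3137 higher and 1958 to 3052 lower, and over the 6 wider lists 7 to 13 higher and 12 to 15 lower. With the letter as a replicate block, edgeR called 4029 genes higher and 4347 lower, 16 and 26 genes of the wider lists, the same 2 and 7 hedgehog genes, and 0 hedgehog transcripts lower and 0 higher (8 and 2 at an unadjusted p below 0.05). The labels do not say that letters pair the libraries, and the differences between A and B in the populations had a correlation of 0.17 across genes. Without 1 library, 0 hedgehog transcripts were called (8 to 13 lower and 2 higher at an unadjusted edgeR p below 0.05), with 1 residual degree of freedom and a lone library assumed to vary like the other population. Transcripts that were not called changed sign in some of these fits, with log2 fold changes between -0.96 and 8.05 for XM_015276719.1 of HHIP, -0.68 and 1.14 for XM_015296544.1 of BOC and -0.51 and 0.088 for XM_417853.5 of CDON, and the cause was not tested. Of 168 counts for single lists, 35 moved by over 1.5 times. The log2 fold change of SHH was 1.95 and 2.71 without ThrbCRM1 A and B and 2.43 and 2.35 without UbiqC A and B, and 2 libraries a population limit all tests.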
